A study of Mus musculus with 12 samples.

Results

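Photoreceptors carry a large standing current, and the membrane of their inner segment and terminal holds the channels and pumps that balance it. Potassium leaves through voltage-gated channels, the sodium pump exports sodium that enters through the light-sensitive channels of the outer segment, and calcium is cleared by plasma membrane pumps and exchangers. A small set of genes of this machinery was followed, chosen by symbol from the gene table: Kcnv2, a modulatory potassium channel subunit, Atp1b2, a beta subunit of the sodium pump, Atp2b1, a plasma membrane calcium pump, and Ano2, a calcium-activated chloride channel. They are 4 of the 53707 genes in the table, and each of the 4 passed the filter on low counts that left 21061 genes for the test.

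RNA was sequenced from whole retinas of wild-type C57BL/6J mice at 28 days of age, kept as explants for 48 hours in Neurobasal-A medium with either 5 mM or 25 mM glucose. The sclera and retinal pigment epithelium had been removed. Each glucose concentration had 3 biological replicates, and each of those was sequenced as 2 technical replicates, the first labelled batch 1 and the second batch 2, which makes 12 libraries. No genotype, drug or other agent separated the groups. The comparison asks how the RNA of a retina differs when more glucose is supplied to the same medium.

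Library totals ranged from 14815285 to 36692484 estimated counts, and the 2 technical replicates of a sample were summed, which gave 37945229 to 60099014 per biological replicate. Levels are given as CPM, each count as a share of its scaled library total. The labels call the 3 samples of a group biological replicates without saying how many animals each holds, so the p-values measure the spread between these samples. The technical replicates of 3 samples stood apart from each other for some genes. Kcnv2 differed 3.35-fold between the libraries of 25 mM replicate 1, 3.19-fold between those of 25 mM replicate 2 and 2.17-fold between those of 5 mM replicate 1, where Atp1b2 differed 2.53-fold. Markers of each retinal cell class were detected, and none of them was at 0 counts in all libraries, while the 5 markers of the removed retinal pigment epithelium summed to 1.97 to 3.87 CPM at 5 mM and 2.79 to 3.07 CPM at 25 mM.

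Of the 4 genes, 2 were higher at 25 mM glucose at a false discovery rate (FDR) under 0.05 and 0 were lower, in the quasi-likelihood test of edgeR with Benjamini-Hochberg adjustment. Among all genes tested, 1.98% passed this threshold, 1.47% as higher and 0.513% as lower at 25 mM. With the stricter pair of limits, an FDR under 0.01 with a change of more than 2-fold, 0 of the 4 passed, as did 0 of all genes (0%). At an unadjusted p under 0.05, 3 of the 4 passed, each as higher, against 28.7% of all genes, or 13.2% as higher, and DESeq2 called 2 of the 4 and 6.59% of all genes at the stricter threshold. The 3 samples at 25 mM lay above the 3 at 5 mM for Kcnv2, Ano2 and Atp1b2, a separation that 31.8% of all genes tested showed in either direction and 16.0% in the same direction. For a single gene, the exact two-sided permutation test of 3 samples against 3 cannot go below p = 0.1, which was its value for these 3 genes.

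**Figure D1:**
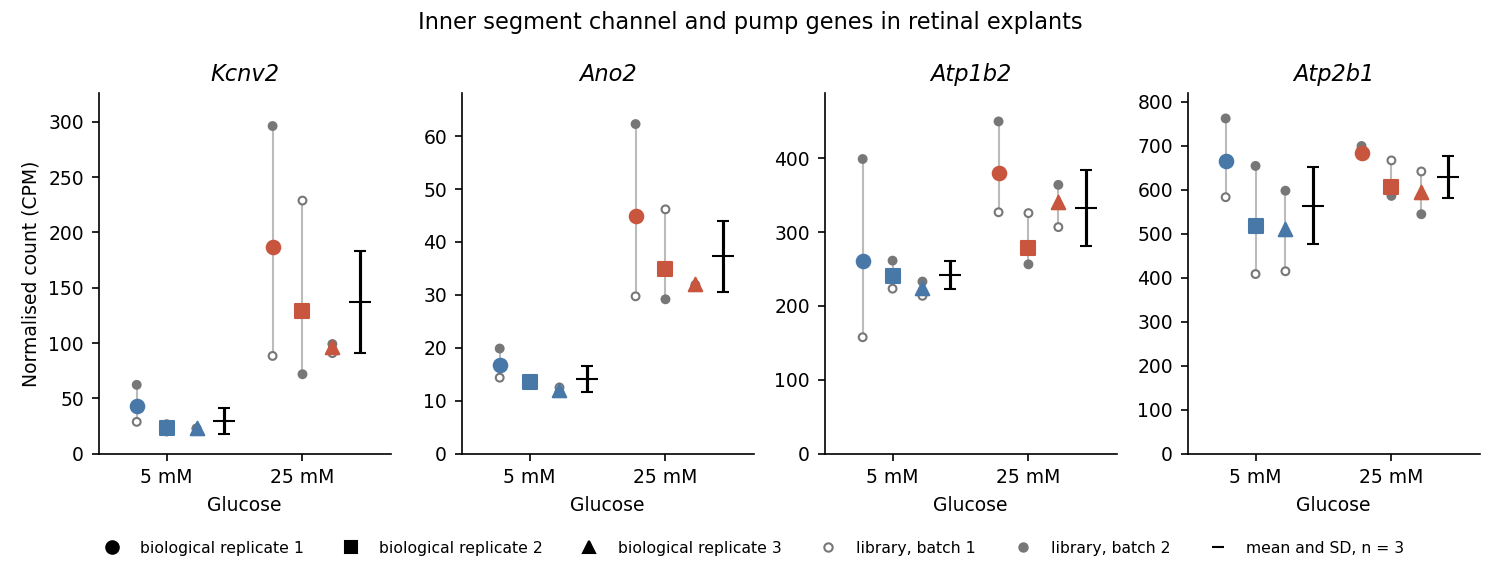
Normalised counts (CPM, linear axis from 0) of Kcnv2, Ano2, Atp1b2 and Atp2b1 at 5 mM and 25 mM glucose. Large symbols are the 3 biological replicates, small circles their libraries from batch 1 (open) and batch 2 (filled), and bars the mean and SD; the Kcnv2 and Ano2 samples separate by group, with means from 29.6 to 137 CPM and from 14.2 to 37.3 CPM, while the Atp2b1 groups overlap.

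Kcnv2 encodes Kv8.2, which forms no channel by itself and joins Kv2 subunits in the inner segments of rods and cones. Loss of its human counterpart causes a cone dystrophy with unusually large rod responses. The mouse gene ENSMUSG00000047298 lies on the plus strand of GRCm38 at chr19:27322588-27337179, and its exons of 5108 bases belong to 1 annotated transcript. Kcnv2 measured 43.1, 22.9 and 22.7 CPM in the 3 samples at 5 mM and 187, 129 and 96.2 CPM in those at 25 mM. The lowest 25 mM sample was above the highest 5 mM sample, although replicate 1 was the highest of its group at both concentrations. The means of the 3 samples, with their SD, were 29.6 ± 11.7 CPM and 137 ± 45.9 CPM. The fitted difference was 2.21 on the log2 scale (SE 0.34, 95% confidence interval 1.44 to 2.99), a 4.63-fold higher level, with an FDR of 0.0322 in edgeR. This difference exceeded that of 99.4% of genes tested.

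By library, Kcnv2 at 5 mM was at 28.7, 20 and 22.8 CPM in batch 1 and at 62.2, 26.6 and 22.5 CPM in batch 2. At 25 mM it was at 88.3, 229 and 90.8 CPM in batch 1 and at 296, 71.8 and 99.1 CPM in batch 2. The lowest of the 25 mM libraries, 71.8 CPM, still lay above the highest 5 mM library, 62.2 CPM. Batch 1 alone gave a log2 difference of 2.50 (edgeR FDR 0.00933) and batch 2 alone 2.05 (edgeR FDR 0.392), and the 2 batches did not differ detectably in it (interaction −0.43 on the log2 scale, SE 0.78, edgeR FDR 0.825). Of all genes, 17.3% passed in batch 1 alone and 0 in batch 2 alone.

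Ano2 encodes a calcium-activated chloride channel known from photoreceptor synaptic terminals and from olfactory neurons. Gene ENSMUSG00000038115 covers chr6:125690419-126040126 on the plus strand of GRCm38, with 5385 bases of exon and 6 annotated transcripts. A processed pseudogene and a small nuclear RNA gene lie within it, on the same strand and without shared exon bases. Ano2 was at 16.8, 13.6 and 12.1 CPM at 5 mM and at 44.8, 35.0 and 32.0 CPM at 25 mM. The groups did not overlap, and the gap between them, from 16.8 to 32.0 CPM, was wider than the range within either group. The means were 14.2 ± 2.42 CPM and 37.3 ± 6.70 CPM (SD, n = 3 each). Ano2 was 2.63-fold higher at 25 mM, a log2 difference of 1.40 (SE 0.22, 95% confidence interval 0.89 to 1.90, edgeR FDR 0.0330). Batch 1 alone gave 1.41 (edgeR FDR 0.0124) and batch 2 alone 1.43 (edgeR FDR 0.391), with an interaction of −0.01 (SE 0.44, edgeR FDR 0.991). These batch fits passed 17.3% and 0 of all genes.

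Both calls held in 2 of the 6 fits that left out a replicate and were lost in 4. Without replicate 1 of the 5 mM group the edgeR FDR was 0.00791 for Kcnv2 and 0.0104 for Ano2, and without replicate 3 of the 25 mM group it was 0.0375 and 0.0435. These 2 fits passed 26.6% and 2.27% of all genes. Leaving out replicate 2 or 3 of the 5 mM group gave Kcnv2 an edgeR FDR of 0.128 and 0.159, and leaving out replicate 1 or 2 of the 25 mM group gave 0.119 and 0.113. For Ano2 these 4 fits gave an FDR of 0.140, 0.159, 0.119 and 0.128. In each of those fits 0 of all genes passed, and the log2 differences stayed between 1.93 and 2.27 for Kcnv2 and between 1.25 and 1.45 for Ano2. Taking 25 mM replicate 2 from its batch 2 library alone, an alternative chosen after seeing the data, also ended both calls (edgeR FDR 0.129 for each) with differences of 2.01 and 1.33.

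Kcnv2 and Ano2 followed each other across libraries. Pearson's r between their log2 CPM values was 0.988 over the 12 libraries, which share 2 glucose groups, 2 batches and 6 samples and are no independent points. The high Kcnv2 libraries were also the high Ano2 libraries: Ano2 was at 62.3 CPM in the batch 2 library of 25 mM replicate 1 and at 46.2 CPM in the batch 1 library of 25 mM replicate 2, and at 29.2 to 31.9 CPM in the 4 other libraries at 25 mM. Among protein-coding genes, those most like Kcnv2 by this measure were Arl6, which encodes a small GTPase of cilia (r = 0.996), Lyar (r = 0.995) and Smug1, a uracil DNA glycosylase (r = 0.994). Those most like Ano2 were Hs3st3b1, a heparan sulfate sulfotransferase (r = 0.996), Marveld3, a tight junction protein (r = 0.988), and Kcnv2 itself. Arl6 had a log2 difference of 2.04 and Hs3st3b1 of 1.89 between the glucose groups.

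**Figure D2:**
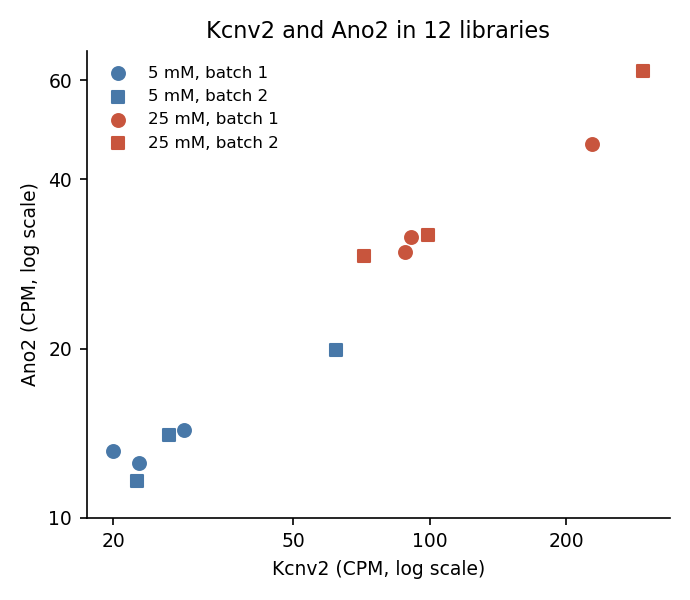
Kcnv2 (x axis) against Ano2 (y axis) in the 12 libraries, in CPM on log scales, coloured by glucose and with a different symbol for each batch. The points line up (r = 0.988), the 6 libraries at 25 mM lie above and to the right of the 6 at 5 mM, and the pair at the top right comes from different 25 mM samples and different batches.

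Start sites could be read for Ano2 and Atp2b1 only, and no window was at hand for Kcnv2 or Atp1b2. RefSeq windows of 250 bases before to 50 bases after a start (GRCm38.p6) matched 2 of the 4 genes, Ano2 with 3 starts and Atp2b1 with 2. The windows were searched on both strands for TAATCC, the core bound by the photoreceptor factor CRX, for CACGTG, the E-box, and for TGCTGA, a part of the site of the rod factor NRL; these letters do not overlap each other in the windows printed. TAATCC occurs in 7.06%, CACGTG in 7.15% and TGCTGA in 19.5% of all 32851 windows. The first Ano2 window, chr6:125690169-125690468 on the plus strand, holds TAATCC 59 bases before the start, and the first Atp2b1 window, chr10:98914392-98914691 on the plus strand, holds CACGTG 8 bases after it. Both are shown with the matched letters in capitals, for the gene with a called difference and for the gene whose groups overlapped.
Ano2: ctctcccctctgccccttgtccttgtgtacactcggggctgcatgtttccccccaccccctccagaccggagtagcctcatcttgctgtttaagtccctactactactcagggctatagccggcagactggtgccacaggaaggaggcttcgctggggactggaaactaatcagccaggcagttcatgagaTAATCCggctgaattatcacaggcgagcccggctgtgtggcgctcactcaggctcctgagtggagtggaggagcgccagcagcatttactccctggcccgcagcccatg
Atp2b1: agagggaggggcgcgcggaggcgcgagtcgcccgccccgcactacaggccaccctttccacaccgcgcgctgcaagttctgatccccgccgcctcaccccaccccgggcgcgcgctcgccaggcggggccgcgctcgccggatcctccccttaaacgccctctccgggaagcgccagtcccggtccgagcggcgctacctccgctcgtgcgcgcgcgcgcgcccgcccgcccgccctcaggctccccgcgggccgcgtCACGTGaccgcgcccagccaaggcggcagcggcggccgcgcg
The windows differ in composition: 59.3% of the Ano2 bases and 79.3% of the Atp2b1 bases are G or C, with 10 and 54 CpG pairs, against a median of 52.7% G or C over all windows. Of the other Ano2 windows, the third holds TGCTGA, starting 112 bases before its start, and the second holds no match, as is the case for the second Atp2b1 window. A gene with several windows has several chances of a match, and a single gene of each kind allows no comparison. A match is a run of letters and says nothing of binding in these samples.

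Atp1b2 encodes the beta-2 subunit of the sodium pump, which brings the catalytic alpha subunit to the membrane and also acts in cell adhesion. It is found in photoreceptor inner segments and in glia. Gene ENSMUSG00000041329 lies on the minus strand of GRCm38 at chr11:69599736-69605942, with 4085 bases of exon in 5 annotated transcripts. Atp1b2 was at 261, 240 and 224 CPM at 5 mM and at 380, 278 and 341 CPM at 25 mM. The samples of the groups did not overlap, and the gap between them was narrow. The means were 242 ± 18.4 CPM and 333 ± 51.5 CPM (SD, n = 3 each), a log2 difference of 0.46 (SE 0.18, 95% confidence interval 0.05 to 0.87) that did not pass the threshold (edgeR FDR 0.139). By library the groups overlapped, from 158 to 399 CPM at 5 mM and from 256 to 450 CPM at 25 mM, with both 5 mM extremes in replicate 1. With a correction for GC content and length the difference was 0.61 and passed (edgeR FDR 0.0434). That fit passed 12.4% of all genes, against 1.98% without the correction. The genes most like Atp1b2 across libraries were Ndrg3 (r = 0.952), Ctsf, a lysosomal protease (r = 0.947), and Srsf4, a splicing factor (r = 0.944).

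The transcripts of Atp1b2 did not share this difference equally. The annotated models that carried at least 10% of its transcript counts were Atp1b2-201, which codes for the protein, and Atp1b2-202, a transcript without a coding frame that keeps the intron of 801 bases at chr11:69601624-69602424. The coding transcript Atp1b2-203 stood just under that share and has 2 short exons inside the same intron, of 27 and 21 bases, which together make 16 codons. The first short exon begins at base 95 of the intron. The sequences at this place show how the models differ; they run 5′ to 3′ on the minus strand of GRCm38, from the exon of 57 bases at chr11:69602425-69602481, and capitals mark bases of the short exons.
Atp1b2-201: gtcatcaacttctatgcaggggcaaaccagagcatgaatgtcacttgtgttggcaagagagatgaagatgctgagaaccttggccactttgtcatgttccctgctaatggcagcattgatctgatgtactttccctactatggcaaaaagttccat
Atp1b2-203: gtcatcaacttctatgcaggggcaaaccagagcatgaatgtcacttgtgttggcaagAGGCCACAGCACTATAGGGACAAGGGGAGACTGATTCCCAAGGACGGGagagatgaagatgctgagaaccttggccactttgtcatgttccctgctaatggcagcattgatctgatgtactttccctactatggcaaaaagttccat
Atp1b2-202, first 150 bases of the kept intron (chr11:69602275-69602424): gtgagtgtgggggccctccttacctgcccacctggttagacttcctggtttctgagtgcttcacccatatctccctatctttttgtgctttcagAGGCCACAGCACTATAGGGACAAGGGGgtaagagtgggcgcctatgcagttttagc
In Atp1b2-201 the exon of 57 bases joins the next exon of 99 bases directly, in Atp1b2-203 the short exons stand between them, and in Atp1b2-202 the intron follows in full.

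Atp1b2-202 took 21.4%, 14.1% and 12.7% of the Atp1b2 transcript counts in the samples at 5 mM and 49.0%, 41.9% and 29.8% in those at 25 mM. The groups did not overlap, neither in this share nor in the level, and levels higher at 25 mM without overlap were found for 13.3% of all transcripts tested. Its own level was 40.7 ± 14.3 CPM at 5 mM and 131 ± 43.5 CPM at 25 mM (SD, n = 3 each), a log2 difference of 1.68 (SE 0.34), with an edgeR FDR of 0.200 over 64990 transcripts, of which 0 passed (0%) and 16.4% had an unadjusted p under 0.05. Atp1b2-201 took 73.2% ± 6.66 at 5 mM and 45.1% ± 9.71 at 25 mM, and its level was 183 ± 7.25 and 145 ± 32.7 CPM (log2 difference −0.34, SE 0.20, edgeR FDR 0.429). Atp1b2-203 took 7.28% ± 0.930 and 10.2% ± 0.697 (log2 difference of its level 0.83, SE 0.21, edgeR FDR 0.217). The shares of these 3 transcripts gave p = 0.1 in the exact permutation test, the smallest it can give.

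The size of the shift differed between batches. In batch 1 the Atp1b2-202 share was 6.34% to 12.9% at 5 mM and 40.6% to 62.5% at 25 mM, and in batch 2 it was 15.7% to 26.1% and 21.6% to 44.9%, where the groups overlap. The summed counts of non-coding against coding transcripts of Atp1b2, a measure chosen after seeing the data, had a log2 ratio of −2.08 at 5 mM and −0.31 at 25 mM, a difference of 1.76 (SE 0.40, limma FDR 0.133). In batch 1 alone this difference was 3.34 (limma FDR 0.0466), where 26 of 5474 genes passed, and in batch 2 alone it was 0.62, where 0 of 5380 did. Without 5 mM replicate 1 it was 2.05 (limma FDR 0.0424), in a fit that passed 808 of 6877 genes. Among the 6909 genes with enough counts of both kinds, 0 passed (0%), 22.4% had a higher ratio at 25 mM at an unadjusted p under 0.05, the median difference was 0.41 and 80.1% of differences were above 0. The Atp1b2 difference was above that of 98.2% of those genes, and above 78.3% in batch 2 alone, where the median was 0.22. The libraries were made from total RNA, so reads from unspliced RNA can be assigned to models that keep an intron, and the part of unspliced RNA in this difference was not tested.

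**Figure D3:**
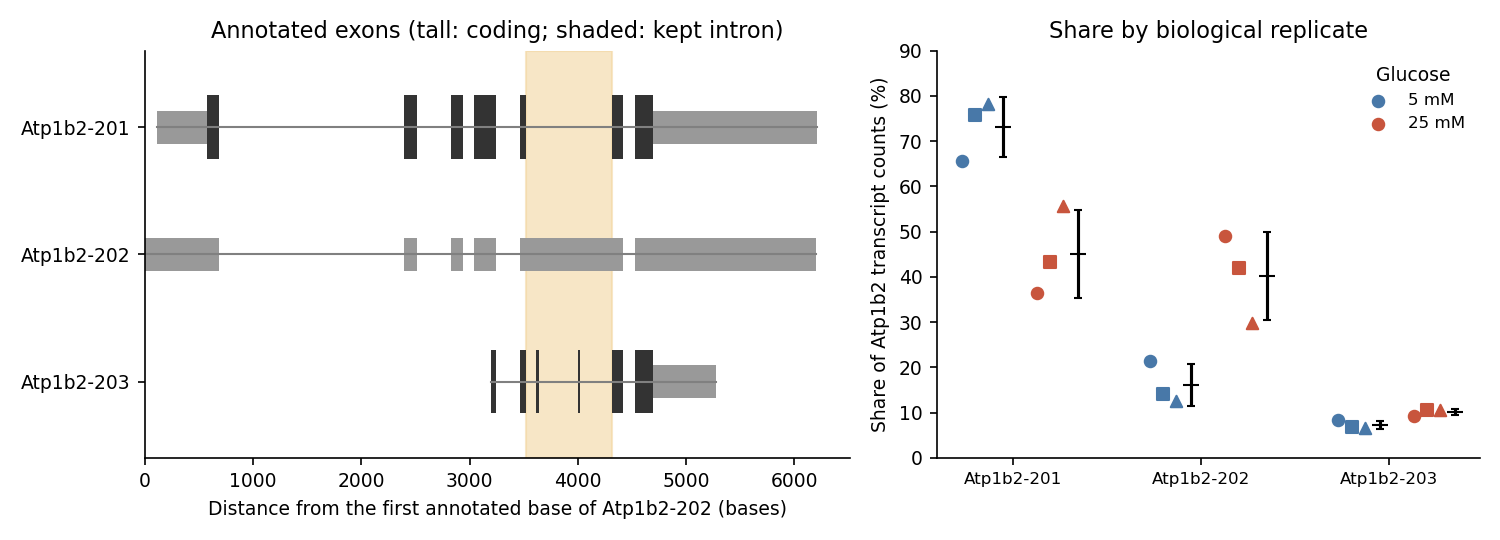
Left, annotated exons of the transcripts Atp1b2-201, Atp1b2-202 and Atp1b2-203 by distance in bases from the first base of Atp1b2-202 (tall boxes coding, low boxes not coding, shading the kept intron). Right, the share of Atp1b2 transcript counts in each (percent), with symbols for the 3 biological replicates and bars for mean and SD; the share of Atp1b2-202 lies at 12.7% to 21.4% at 5 mM and at 29.8% to 49.0% at 25 mM.

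The coding transcript Ano2-204 took 36.0% ± 3.48 of Ano2 at 5 mM and 43.9% ± 3.97 at 25 mM, and its level was 5.09 CPM and 16.9 CPM (log2 difference 1.73, SE 0.32, edgeR FDR 0.198). Ano2-206, annotated as a target of nonsense-mediated decay, had a log2 difference of 1.94 (SE 0.54, edgeR FDR 0.224). Ano2-202, of the same class, took 38.3% ± 8.95 at 5 mM and 18.8% ± 14.8 at 25 mM and had a difference of 0.29 (SE 0.56, edgeR FDR 0.815). In the non-coding to coding ratio, every model not annotated as protein-coding counts as non-coding. For Ano2 these are mainly Ano2-206 and Ano2-202, models of another class than those of Atp1b2, so the ratios of the genes are not alike in kind. The log2 ratio of Ano2 was 0.48 lower at 25 mM (difference −0.48, SE 0.23, limma FDR 0.257), where that of Atp1b2 was higher. That of Atp2b1 had a difference of 0.22 (SE 0.26, limma FDR 0.602), of the same sign as that of Atp1b2. For Kcnv2, with 1 transcript, the transcript table gave a log2 difference of 2.14 (SE 0.38).

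Atp2b1 encodes a plasma membrane calcium pump (PMCA1) that exports calcium from many cell types, photoreceptors included. Gene ENSMUSG00000019943 covers chr10:98914406-99026143 on the plus strand of GRCm38, with 15218 bases of exon and 11 annotated transcripts. Atp2b1 was at 664, 516 and 511 CPM at 5 mM and at 683, 606 and 595 CPM at 25 mM. The groups overlapped, since 5 mM replicate 1 was above 2 of the 3 samples at 25 mM. The means were 564 ± 86.8 CPM and 628 ± 47.8 CPM (SD, n = 3 each), and the log2 difference was 0.16 (SE 0.19, edgeR FDR 0.592). Its 95% confidence interval, −0.27 to 0.58, leaves room for a moderate difference in either direction.

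The batches pointed opposite ways for Atp2b1. At 5 mM it was at 583, 408 and 415 CPM in batch 1 and at 762, 654 and 598 CPM in batch 2, higher in batch 2 for each sample. At 25 mM it was at 693, 666 and 641 CPM in batch 1 and at 699, 586 and 544 CPM in batch 2. Batch 1 alone gave a log2 difference of 0.50 and batch 2 alone −0.14, and neither passed. The interaction of glucose with batch was −0.67 (SE 0.21, edgeR FDR 0.243), and 0 of 21061 genes passed for it. The main transcript Atp2b1-201 held 83.8% of the transcript counts at 5 mM and 83.3% at 25 mM, with a log2 difference of 0.04 (SE 0.22). Genes most like Atp2b1 were Grm5, a metabotropic glutamate receptor (r = 0.980), the protocadherin Pcdhb11 (r = 0.977) and Frmd3 (r = 0.974), and r between Atp2b1 and the other members was 0.52 to 0.59.

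Levels of different genes are compared per kilobase of merged exon. At 5 mM the order was Atp1b2 at 59.2, Atp2b1 at 37.0, Kcnv2 at 5.79 and Ano2 at 2.63 CPM per kilobase. At 25 mM it was 81.5, 41.3, 26.9 and 6.92 CPM per kilobase, in the same order. Kcnv2 and Ano2 were the lowest at both concentrations. The order of Atp1b2 and Atp2b1 depends on the length used: with each transcript divided by its own length, Atp2b1 was at 139 and Atp1b2 at 103 at 5 mM, and 155 and 142 at 25 mM.

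The markers of rods moved in the same direction as Kcnv2 and Ano2. In bulk tissue, fewer cells of a type and less RNA per cell cannot be told apart. The summed level of 11 rod markers was 1894 to 2576 CPM in the samples at 5 mM and 4251 to 4871 CPM in those at 25 mM, a ratio of means of 1.95. Of the 11, 11 had a difference above 0 and 5 passed as higher, against 1.47% of all genes tested. The 8 cone markers summed to 64.8 to 89.95 CPM at 5 mM and 87.8 to 106 CPM at 25 mM. Of these, 5 had a difference above 0 and 3 below, with a median of 0.37 on the log2 scale. Of the 8, 1 passed as higher, beside the same share of all genes. Markers of vascular cells (912 to 1587 CPM at 5 mM, 505 to 841 CPM at 25 mM) had the lower sum at 25 mM, with 5 of 6 below 0. The amacrine marker sum (244 to 295 CPM at 5 mM, 120 to 205 CPM at 25 mM) was also lower, but 3 of its 6 markers were above 0 and 3 below, with a median of 0.04 on the log2 scale. Of the vascular and amacrine markers, 0 passed. Bipolar cell markers summed to 1233 to 1290 CPM at 5 mM and 963 to 1125 CPM at 25 mM, horizontal cell markers to 7.42 to 16.6 and 13.1 to 21.5 CPM, and ganglion cell markers to 180 to 311 and 202 to 288 CPM. Microglial markers summed to 59.7 to 120 CPM at 5 mM and 33.5 to 66.0 CPM at 25 mM, and Mueller glia markers to 1921 to 2133 and 1582 to 2063 CPM. The part of these markers in the differences of the 4 genes was not tested.

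As a share of the rod marker sum, a description chosen after seeing the data, Kcnv2 stood at 1.37% ± 0.790 at 5 mM and 3.02% ± 0.813 at 25 mM (SD, n = 3 each). The highest sample at 5 mM, 2.28%, was above the lowest at 25 mM, 2.21%. Ano2 stood at 0.636% ± 0.219 and 0.826% ± 0.0923, with overlap. Atp1b2 had the lower share at 25 mM, with 10.8% ± 2.62 and 7.39% ± 0.738, as did Atp2b1, with 25.3% ± 8.44 and 13.98% ± 0.294. The samples did not overlap for either gene, as was so, with the lower share at 25 mM, for 65.2% of all genes tested, since the rod marker sum was higher at 25 mM. In this measure replicate 1 was the highest of the 5 mM samples for each of the 4 genes; its rod marker sum was 1894 CPM, the lowest of the 6 samples.

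**Figure D4:**
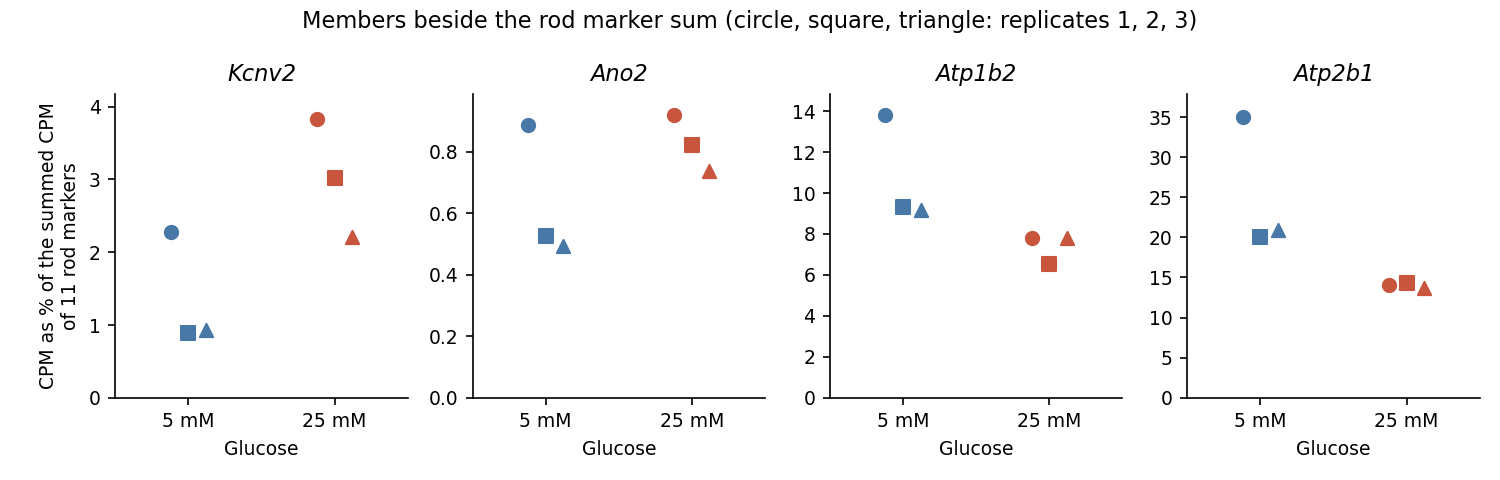
CPM of each gene as a percentage of the summed CPM of 11 rod markers (linear axis from 0), at 5 mM and 25 mM glucose, with symbols for the 3 biological replicates. Kcnv2 had the higher mean share at 25 mM (3.02% against 1.37%), the Ano2 samples overlap, and the Atp1b2 and Atp2b1 samples at 25 mM lie below those at 5 mM, as in 65.2% of all genes.

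The relatives of the 4 genes were read from 6 lists of families and partners. Of 10 sodium pump subunits and FXYD regulators tested, 0 passed in either direction, 8 had a difference below 0, and the median was −0.64 on the log2 scale, against −0.01 for all genes tested. An unadjusted p under 0.05 was found for 5, each lower at 25 mM. Of all genes, 28.7% had one in either direction and 13.2% as higher. The beta-3 subunit Atp1b3 was at 445 ± 110 CPM at 5 mM and 242 ± 68.5 CPM at 25 mM (log2 difference −0.88, SE 0.27, edgeR FDR 0.0926), the opposite direction to Atp1b2. The regulator Fxyd5 had a difference of −1.61 (SE 0.51, edgeR FDR 0.0958). In batch 1 alone, 4 of the list passed, where 17.3% of all genes did. The median of the list was −0.25 in batch 1 alone and −0.47 in batch 2 alone.

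Of 10 calcium pumps and sodium-calcium exchangers, 0 passed, 7 were below 0 and the median was −0.24. The endoplasmic reticulum pump Atp2a2 was at 373 ± 50.8 CPM at 5 mM and 258 ± 43.8 CPM at 25 mM (log2 difference −0.53, edgeR FDR 0.125). Its groups did not overlap, as was so in this direction for 15.8% of all genes. The Golgi pump Atp2c1 had a difference of 0.40 (edgeR FDR 0.280), the exchanger Slc8a2 of −0.85 (edgeR FDR 0.144) and Atp2a3 of −0.68 (edgeR FDR 0.171). At an unadjusted p under 0.05 there were 4 genes, each lower at 25 mM. Of all genes, 28.7% reached this in either direction and 13.2% as higher. The median of the list was 0.17 in batch 1 alone and −0.32 in batch 2 alone.

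Potassium channel partners showed no comparable difference to Kcnv2. Of the Kv2 and modulatory subunits, 6 of 10 passed the count filter and 0 passed the test, with a median difference of −0.09. At an unadjusted p under 0.05 there were also 0, against 28.7% of all genes. Kcnb2, a Kv2 pore subunit, was at 9.33 ± 3.96 and 12.2 ± 4.47 CPM (log2 difference 0.38, SE 0.38), Kcng4 had a difference of 0.15 and Kcns3, at under 1 CPM, of −0.77. The 3 HCN channel genes tested, which encode channels opened by hyperpolarisation, had differences of −0.52 (Hcn2), −0.07 (Hcn3) and −0.31 (Hcn4), and 0 passed, also at an unadjusted p under 0.05. Their median was 0.21 in batch 1 alone and −0.91 in batch 2 alone.

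Of 8 anoctamins tested besides Ano2, 0 passed, with 4 above and 4 below 0 and a median of 0.01. Ano6, a lipid scramblase, was at 118 ± 19.6 CPM at 5 mM and 65.1 ± 21.1 CPM at 25 mM (log2 difference −0.85, edgeR FDR 0.0912). Ano1, the close relative of Ano2 in epithelia and smooth muscle, was at 11.9 ± 4.00 and 4.41 ± 1.78 CPM (log2 difference −1.43, edgeR FDR 0.0735). Its samples did not overlap, as was so in this direction for 15.8% of all genes. Ano10 had a difference of −0.22. At an unadjusted p under 0.05 there were 3 anoctamins, 1 of them higher at 25 mM, against 28.7% of all genes in either direction.

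Of the 4 genes for the calcium channel of the photoreceptor terminal, 2 passed as higher at 25 mM, against 1.47% of all genes tested. The differences of 4 of 4 were above 0, with a median of 1.15. The 11 rod markers, with a median of 1.06, moved the same way, and their part in this was not tested. Cacna1f, the pore subunit, rose from 40.8 ± 9.91 to 122 ± 39.1 CPM (log2 difference 1.58, SE 0.27, edgeR FDR 0.0380). Cabp4, a calcium-binding protein that modulates this channel, rose from 28.6 ± 2.65 to 59.4 ± 1.31 CPM (log2 difference 1.06, SE 0.16, edgeR FDR 0.0308), with its 3 samples at 25 mM between 57.9 and 60.5 CPM. Cacnb2, the beta subunit, had a difference of 1.25 and missed the threshold (edgeR FDR 0.0581), and Cacna2d4, an auxiliary subunit, had one of 0.40 (edgeR FDR 0.255). In batch 1 alone 4 of the 4 passed and in batch 2 alone 0 did, where 17.3% and 0 of all genes passed.

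**Figure D5:**
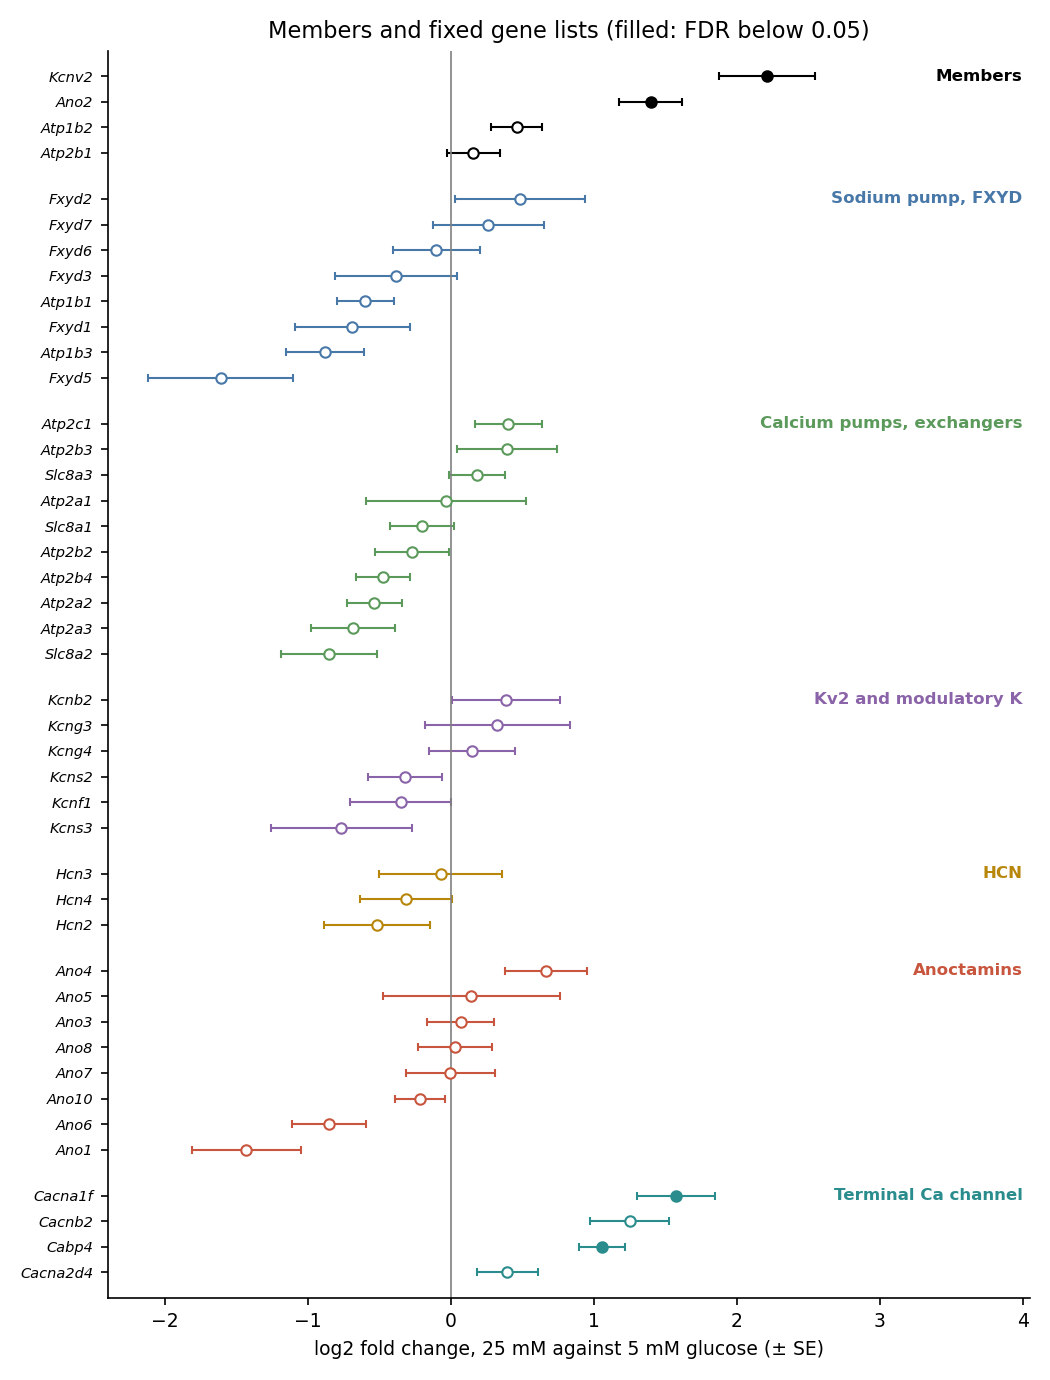
Log2 difference between 25 mM and 5 mM glucose (x axis) with its SE for Kcnv2, Ano2, Atp1b2, Atp2b1 and tested genes of the 6 lists (y axis; not every gene is drawn); filled points have an FDR under 0.05. The filled points are Kcnv2 (2.21), Ano2 (1.40), Cacna1f (1.58) and Cabp4 (1.06), each above 0.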

How the data were processed

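RNA was extracted with TRIzol, and libraries were made from 4 ng of total RNA with a stranded low-input kit and 13 PCR cycles and sequenced as paired reads of 101 bases. The authors deposited expected counts (estimated counts) per gene and per transcript, not normalized, with technical replicates kept apart; the submitters' processing notes name GRCm38, and the counting tool and its use of strand are not given in the sources used here. Intervals and p-values cover counting and replicate error, since amplified reads without molecular identifiers are not independent molecules.

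Technical replicates were summed and rounded. Filtering (filterByExpr), TMM scaling and the quasi-likelihood test (as in edgeR 3) used edgeR 4.0.16 under R 4.3.3, with no block for replicate numbers; p-values were adjusted by Benjamini-Hochberg across 21061 genes or 64990 transcripts, and transcript ratios used limma 3.58.1, at least 60 counts and a pseudocount of 0.5. Log2 CPM values used a prior count of 2. Symbols came from GENCODE M21 (48766 of 53707 identifiers, 90.8%). The design spoke of gene counts; expected counts were used. Scripts were tested on simulated data. Alternatives included DESeq2 1.42.0, limma-voom, other filters and scalings, each batch, and each replicate left out.

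The members and lists were chosen with earlier results of these data known. Named were the 4 members; from each list the genes at an FDR under 0.05 or, without any, the 2 with the highest CPM and the 2 with the largest difference; the 3 protein-coding genes most correlated with each member; and transcripts with at least 10% of a member's counts. Atp1b2-203, Cacnb2 and Cacna2d4 fall outside this rule, and Atp1b2-203 was named after its values were seen. Some genes of these families are not reported here.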

Additional observations from a re-analysis of the deposited data

Results flagged for a closer look

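In the second technical replicate of 5 mM replicate 1, Kcnv2 measured 62.2 CPM and Ano2 19.9 CPM. Each value was farther from the other 5 libraries at 5 mM than Dixon's test allows at the 95% level, whereas the first technical replicate of the same sample held 28.7 CPM of Kcnv2 and 14.4 CPM of Ano2. Of 10 groups tested 2 stood out in this way, and chance would give 0.5 if the libraries were independent. They come in pairs of technical replicates, so the 0.5 does not strictly hold. Both values also come from the same library, in genes with r = 0.988 over the 12 libraries. With 5 mM replicate 1 taken from its batch 1 library alone, an alternative chosen after seeing the data, the log2 differences were 2.46 for Kcnv2 and 1.47 for Ano2, and both passed the threshold (edgeR FDR 0.00796 and 0.0161). That fit passed 8.27% of all genes.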

How the results depend on the processing

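Over 23 alternatives the log2 difference of Kcnv2 stayed between 1.84 and 2.59 and that of Ano2 between 1.20 and 1.54, each with an FDR under 0.05 in 17; Atp1b2 ranged from 0.26 to 0.68 (2 under 0.05) and Atp2b1 from −0.14 to 0.50 (0 under 0.05). Leaving out each replicate gave 1.93 to 2.59 for Kcnv2, 1.25 to 1.54 for Ano2, 0 to 2 members called and 0 to 1 at the stricter threshold. These fits passed 0% to 26.6% of all genes, and 0% to 0.492% at the stricter threshold. Batch 2 alone gave 2.05 for Kcnv2, 1.43 for Ano2, −0.14 for Atp2b1, 0 members called and 0 terminal calcium channel genes, in a fit that passed 0 of all genes. Batch 1 alone called 4 sodium pump genes, 1 calcium pump gene, 3 anoctamins and 4 terminal channel genes, and 17.3% of all genes. With 25 mM replicate 2 from its batch 2 library alone, the values were 2.01 and 1.33 with 0 members called. GC and length correction gave 0.61 for Atp1b2 (FDR 0.0434) and −0.030 for Atp2b1, and 0.62 (FDR 0.0212) and −0.033 together with a replicate block. These fits passed 12.4% and 15.2% of all genes at an FDR under 0.05. At the stricter threshold DESeq2, no filter on low counts, and the GC correction with the block called 2 members (and 6.59%, 0.783% and 2.21% of all genes), and the 12 libraries with a batch term, batch 1 alone, and 5 mM replicate 1 from its batch 1 library called 1 (0.582%, 1.93% and 0.267%). Deviations of same-numbered samples had correlations of −0.01, −0.45 and 0.28 over all genes. With 3 samples per group these values cannot settle whether the numbers pair the samples. The replicate block gave 2.23 for Kcnv2 (SE 0.20, against 0.34 without it) and 990 genes against 417. Over all settings, genes called at an FDR under 0.05 ranged from 0 to 5845 (DESeq2 3489), the latter without 5 mM replicate 1. Transcript Ano2-202 was at −0.074 in batch 1 alone and at −0.39 to 0.68 with replicates left out, and Atp2b1-201 at −0.069 in batch 2 alone and at −0.079 to 0.28. The Atp1b2 ratio difference was 3.34 in batch 1 alone and 1.49 to 2.09 with replicates left out. By longest coding transcript and by own transcript length, CPM per kilobase at 5 mM and 25 mM was 85.1 and 117 or 103 and 142 for Atp1b2, 79.1 and 88.1 or 139 and 155 for Atp2b1, and 3.61 and 9.50 or 4.16 and 11.1 for Ano2. The causes were not tested.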

Other observations

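Minor transcripts of 2 members, named after their values were seen, held few counts. Atp1b2-205, which has no coding frame, was at 1.76, 1.52 and 0.326 CPM at 5 mM and at 5.45, 4.59 and 3.64 CPM at 25 mM (log2 difference 1.92, SE 0.62, edgeR FDR 0.241). Ano2-201, annotated as keeping an intron, was at 0.114, 0.0922 and 0 CPM at 5 mM and at 0.841, 0.751 and 0.592 CPM at 25 mM, 0.448% and 1.93% of the Ano2 transcript counts. The samples did not overlap for either transcript, as for 13.3% of all transcripts tested in this direction, and neither passed the threshold.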
